A study of Mus musculus with 12 samples.

Results

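The genes described here encode the enzymes that make cholesterol and fatty acids from acetyl-CoA, with the proteins that control them. Of 34 listed genes, 31 were measured under their own name, out of 13508 named genes in the expression table, and all 31 had a mean of at least 1 FPKM over the 12 libraries. FPKM divides a gene's fragments by its transcript length and by the mapped reads of the library, so levels can be set side by side between genes. The sterol branch held 14 measured genes, 6 of the mevalonate steps and 8 of the steps from squalene to cholesterol. The fatty acid branch held 11, and 6 more act in control and transport. Fdps, Tm7sf2 and Acsl3 had no row of their own: each shared a row with a neighbouring gene (Rusc1, Vps51 with Zfpl1, and Utp14b), and they were left out.

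In the mevalonate pathway acetyl-CoA is built up to isoprenoid units, which are joined to squalene, closed into a ring and trimmed to cholesterol; fatty acid synthesis starts from the same acetyl-CoA. Both branches are controlled by the SREBP transcription factors. These sit in the endoplasmic reticulum with the escort protein SCAP, are held there by INSIG proteins when sterols are plentiful, and travel to the Golgi to be cut and released when sterols are scarce. SREBP2, from Srebf2, acts mainly on sterol genes and SREBP1, from Srebf1, mainly on fatty acid genes.

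The libraries came from 4 mouse embryonic stem cell lines of strain 129SvEv: lines 18 and 26 are wild type (WT), and lines 25 and 39 are Arkadia -/- (null). Arkadia is a ubiquitin ligase encoded by Rnf111 that acts on inhibitors of SMAD signalling. Every line was grown without serum in 2i medium (which inhibits GSK3 and MEK) with LIF. Cells then spent 24 h in N2B27 medium on fibronectin and 4 h in N2B27 with 10 µM SB431542 (SB), which blocks the Activin, Nodal and TGFβ type I receptors. From each line 1 dish was harvested in SB, and 2 were washed and harvested after 3 or 6 h in N2B27 to which Activin A had been added at 10 ng/ml. Activin was always given in fresh medium without SB, so the effects of Activin, of SB removal, of the medium change and of time in culture cannot be told apart. Each library is 1 dish of 1 line, 2 lines form a group, and fewer cells of a type and less RNA per cell cannot be told apart in such bulk samples.

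Rnf111 stood at 3.19 to 4.27 FPKM in WT and 0.539 to 0.855 in null libraries. All 10 embryonic stem cell markers examined were measured, and their summed level was 1540 to 1890 FPKM in SB and 2180 to 2580 after Activin. The markers did not move together. At both 3 and 6 h, 4 were called higher by limma (Pou5f1, Nanog, Tdgf1 and Dppa5a). Another 5 were called lower at both times (Sox2, Sall4, Zfp42, Lin28a and Utf1). Of all tested genes 18.8% were higher and 18.7% lower at 3 h, and 21% and 16.1% at 6 h. Of the endoderm markers 6 of 10 were measured, summing to 4.08 to 7.44 FPKM, with Sox17 at 0 in 2 libraries; 7 of 10 fibroblast markers summed to 11 to 21.4 FPKM. Summed FPKM over all named and unnamed loci was 578104 to 722232 in SB and 671164 to 805752 after Activin, and ribosomal protein genes held 16.1 to 18.3% of the FPKM of named genes in SB and 18.3 to 20.0% after Activin. Relative depth, read from the steps between low FPKM values, was 1.47 to 1.81 times that of the shallowest library (null line 39 at 6 h) in SB and 1.00 to 1.57 times after Activin. The part of these differences in the results below was not tested.

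Promoter sequences were searched for the sterol regulatory element core and for the NF-Y, Sp1 and E-box motifs. The 4 below are the 250 bases before the RefSeq start site (GRCm38.p6), 5′ to 3′ on the gene's strand: Msmo1, Idi1 and Cyp51 are the sterol enzymes called higher at both times on the mean of both genotypes (Cyp51 at 3 h in the WT lines alone), and Hmgcs1 is the only sterol gene examined whose window held the sterol regulatory element core. They lie at chr8:64733579-64733828 (minus strand), chr13:8885356-8885605 (plus), chr5:4104698-4104947 (minus) and chr13:119690101-119690350 (plus). Part of each stretch lies inside the measured locus of its gene (coordinates below), which begins before the RefSeq start site used. Capitals mark CCAAT or its reverse complement ATTGG, the NF-Y motif, and TCACCCCAC, a match to the core TCACNCCAC.
Msmo1: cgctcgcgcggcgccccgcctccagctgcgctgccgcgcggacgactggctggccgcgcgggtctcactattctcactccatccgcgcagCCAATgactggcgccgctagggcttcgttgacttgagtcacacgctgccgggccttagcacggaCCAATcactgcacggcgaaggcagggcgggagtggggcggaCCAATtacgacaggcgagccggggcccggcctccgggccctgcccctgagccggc
Idi1: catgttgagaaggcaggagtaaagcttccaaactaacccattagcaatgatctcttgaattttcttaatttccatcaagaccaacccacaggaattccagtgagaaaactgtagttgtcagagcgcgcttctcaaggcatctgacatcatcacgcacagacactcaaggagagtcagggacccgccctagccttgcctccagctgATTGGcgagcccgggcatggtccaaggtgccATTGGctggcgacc
Cyp51: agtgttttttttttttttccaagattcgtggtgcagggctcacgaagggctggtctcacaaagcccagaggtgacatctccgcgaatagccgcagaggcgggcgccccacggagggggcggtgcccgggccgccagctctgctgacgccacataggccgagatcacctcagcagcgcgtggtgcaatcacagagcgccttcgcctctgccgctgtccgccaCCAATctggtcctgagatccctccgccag
Hmgcs1: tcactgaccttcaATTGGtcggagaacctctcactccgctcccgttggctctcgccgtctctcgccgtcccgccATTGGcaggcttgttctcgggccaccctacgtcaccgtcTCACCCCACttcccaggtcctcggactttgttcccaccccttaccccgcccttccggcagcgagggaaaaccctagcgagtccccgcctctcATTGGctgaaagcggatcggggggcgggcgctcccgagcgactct
The Msmo1 stretch held 3 CCAAT motifs, Idi1 held 2, Cyp51 held 1 and Hmgcs1 held 3 besides the sterol regulatory element core, whose first base lay at -137 from the start site. In windows from 250 bases before to 50 after a start site, searched on both strands, CCAAT occurred in 11 of the 12 sterol genes with a RefSeq entry (91.7%), 5 of 8 fatty acid genes (62.5%) and 4 of 5 control and transport genes (80.0%). It occurred in 43.2% of the 9102 tested genes with an entry. The Sp1 motif GGGCGG, whose letters can overlap those of ATTGG, occurred in 91.7% of sterol, 50.0% of fatty acid and 69.4% of all tested genes, and the E-box CACGTG in 25.0%, 12.5% and 11.8%. TCACNCCAC occurred in 1 of 12 sterol genes, 0 of 8 fatty acid genes and 1.45% of tested genes. These are matches of letters in a short window, not measured binding sites.

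Across the 4 lines the sterol branch rose by 6 h of Activin, while the fatty acid genes were divided, with changes above 0 for 3 of 11. On the change averaged over both genotypes, 9 of 14 sterol genes were higher at 6 h than in SB and none were lower by limma (0 also at an unadjusted p under 0.05), with a median change of 0.30 on the log2(FPKM + 1) scale. Of 11 fatty acid genes, none were higher and 2 were lower (Scd1 and Fads1), with a median of -0.09; at an unadjusted p under 0.05, Me1 and Scd2 were higher. With the cell line as a block, which pairs the libraries of a line, 11 sterol genes were higher and none lower, and 3 fatty acid genes were higher and 5 lower. Of all 12823 genes tested, 21% were higher and 16.1% lower in this comparison, with a median of 0.01, and among genes of at least 5 FPKM in 2 libraries 28% were higher. Genes were called at an adjusted p under 0.05 from limma with Benjamini-Hochberg adjustment over all tested genes. Over all 31 measured genes, 11 were higher and 4 lower at 6 h, and 16 and 7 with the cell line as a block. With the block, 27.5% of all tested genes were higher at 6 h and 20.8% lower.

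At 3 h the picture was mixed in both branches. Of the sterol genes 3 were higher (Idi1, Msmo1 and Cyp51) and 3 lower (Mvk, Dhcr7 and Lss), with a median change of 0.07, which became -0.06 under quantile normalization. Of the fatty acid genes 2 were higher (Scd2 and Fasn) and 3 lower (Elovl5, Elovl6 and Scd1), with a median of -0.08. In all, 7 of the 31 genes were higher and 6 lower, against 18.8% and 18.7% of all tested genes, so both shares lay near those of the table. With the cell line as a block 10 were higher and 9 lower, against 24.7% and 23.7%. Between 3 and 6 h, 9 sterol genes were higher at 6 h and none lower (median 0.23), and 11 of the 31 genes were higher and 2 lower, against 7.83% and 4.95% of all tested genes. With the cell line as a block the count between 3 and 6 h was 15 higher and 6 lower, against 14.1% and 8.8% of all tested genes.

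Leaving out a WT line left 1 library in each WT group. Fewer genes were then called over both genotypes, in the whole table as among the 31. At 6 h, of the 15 genes called over both genotypes, Msmo1, Cyp51, Pmvk and Sc5d were called without WT line 18, and Msmo1, Cyp51, Sc5d and Scd1 without WT line 26. At 3 h the genes called were Elovl5 without line 18 and none without line 26, out of 13. The sterol median at 6 h lay between 0.28 and 0.31 whichever line was left out. Under quantile normalization, which forces the libraries to 1 distribution, 7 sterol genes were higher and 1 (Mvk) lower at 6 h, with a median of 0.16, and the split over all genes became 16.9% higher and 20.4% lower.

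**Figure D1:**
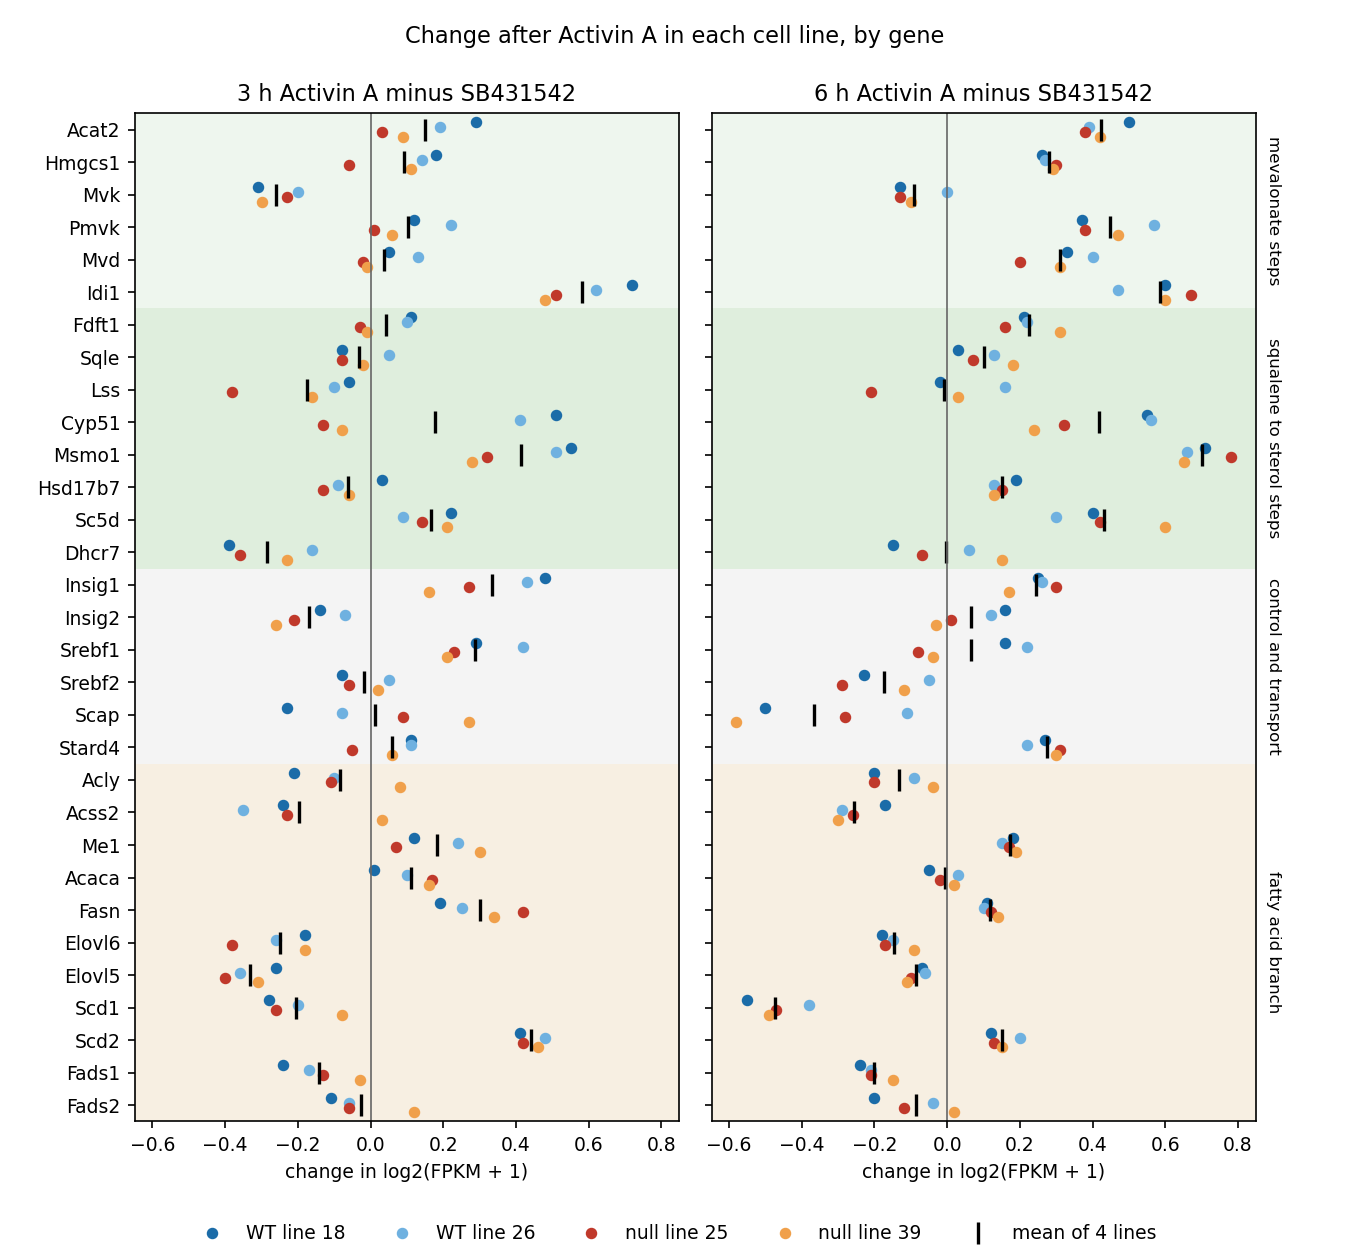
Change in log2(FPKM + 1) from SB to 3 h (left) and 6 h (right) of Activin A for the 31 measured genes, 1 point per cell line with a black bar at the mean of the 4 lines; shading separates the mevalonate, squalene to sterol, control and fatty acid genes. At 6 h all 4 lines were above 0 for 11 of the 14 sterol genes, against 32.5% of all tested genes. At 3 h they were for 5, against 27.3%.

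Idi1 was the mevalonate gene with the largest rise. It encodes isopentenyl diphosphate isomerase, which supplies the starter unit for isoprenoid chains, and lies at chr13:8885539-8892517 (mm10). In WT lines 18 and 26 it stood at 211 and 234 FPKM in SB, 350 and 360 at 3 h and 321 and 324 at 6 h. In null lines 25 and 39 it stood at 256 and 332 FPKM in SB, 365 and 463 at 3 h and 408 and 504 at 6 h. All 3 h libraries lay above all SB libraries, while at 6 h the WT libraries fell just below the SB value of null line 39. The change was 0.58 at 3 h (SE 0.111, limma adjusted p = 0.0048) and 0.59 at 6 h (adjusted p = 0.0052), with a difference of 0.00 between the times. Quantile normalization gave smaller changes of 0.33 at 3 h and 0.36 at 6 h, both still called.

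Acat2, Hmgcs1, Pmvk and Mvd were called at 6 h but not at 3 h. Acat2, the cytosolic thiolase that opens the pathway (chr17:12942854-12960820), was 70.5 and 68.2 FPKM in WT lines 18 and 26 in SB, 86.6 and 78.0 at 3 h and 100 and 89.8 at 6 h. In the null lines, 25 and 39, it was 68.4 and 74.8, then 69.9 and 79.7, then 89.4 and 100 FPKM. Its 6 h libraries all lay above its SB libraries, and it rose by 0.42 at 6 h (SE 0.0681, limma adjusted p = 0.0026). With quantile normalization this rise was 0.28, still called. Of the 50-base words in its longest transcript, 45.9% also occurred on either strand in other genes, mainly Acat3, so its level is less certain.

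Hmgcs1, the HMG-CoA synthase (chr13:119690297-119708371), was among the most abundant of these transcripts. It stood at 345 and 327 FPKM in SB, 391 and 360 at 3 h and 413 and 396 at 6 h in WT lines 18 and 26. Across null lines 25 and 39 it stood at 354 and 348, then 339 and 375, then 437 and 427 FPKM. Every 6 h library exceeded every SB library, by amounts that were alike in the 4 lines (0.26 to 0.30). The rise at 6 h was 0.28 (SE 0.0545, limma adjusted p = 0.0055), and under quantile normalization it was 0.06 (adjusted p = 0.55).

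Pmvk, the phosphomevalonate kinase (chr3:89459142-89469018, a locus covering a 0.682 share of the annotated gene), was 106 and 88.9 FPKM in SB, 116 and 104 at 3 h and 137 and 132 at 6 h in WT lines 18 and 26. In null lines 25 and 39 it was 91.4 and 95.5, then 92.3 and 99.7, then 119 and 133 FPKM. The 6 h values stood clear of the SB values and the 3 h values overlapped them, and the rise at 6 h was 0.45 (SE 0.0694, limma adjusted p = 0.0022). With quantile normalization this rise was 0.29, still called. Mvd, the decarboxylase that makes isopentenyl diphosphate (chr8:122433596-122443535), was 94.7 and 78.2 FPKM in SB, 97.8 and 85.4 at 3 h and 119 and 104 at 6 h in the WT lines, and 84.6 and 79.1, then 83.3 and 78.2, then 97.3 and 98.1 FPKM in the null lines. Its 6 h libraries lay above its SB libraries by a narrow margin, with a rise of 0.31 (SE 0.0771, limma adjusted p = 0.015) that was 0.17 (adjusted p = 0.17) under quantile normalization and was not called without any 1 of the 4 lines (adjusted p = 0.059 to 0.088). Mvk, the mevalonate kinase, went the other way at 3 h: it ranged from 34.4 to 40.2 FPKM in SB and from 28.8 to 32.2 at 3 h, a fall by 0.26 (limma adjusted p = 0.0083; 0.05 without null line 39, no longer called), and its 6 h value was not called (-0.09, adjusted p = 0.23).

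Msmo1 showed the largest change of the 31 genes. It encodes the methylsterol monooxygenase that removes methyl groups from the sterol ring and lies at chr8:64717939-64733741. In WT lines 18 and 26 it stood at 242 and 238 FPKM in SB, 356 and 339 at 3 h and 397 and 376 at 6 h. In the null lines, 25 and 39, it stood at 246 and 279, then 308 and 339, then 424 and 439 FPKM. The groups did not overlap: each line rose from SB to 3 h and again to 6 h. The change was 0.42 at 3 h (SE 0.0585, limma adjusted p = 0.0013) and 0.70 at 6 h (adjusted p = 7.1e-05), from a mean of 251 ± 18.8 FPKM (SD, n = 4 lines) in SB to 409 ± 28.1 at 6 h. Under quantile normalization the change was 0.16 at 3 h and 0.48 at 6 h, and the 6 h change passed the test under each alternative tried.

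Cyp51, the demethylase that acts on lanosterol (chr5:4081144-4104859), was lower in null than in WT lines at 3 h, in a call that was lost when any line was left out (adjusted p = 0.059 to 0.71). In WT lines 18 and 26 it stood at 84.1 and 79.2 FPKM in SB, 120 and 105 at 3 h and 123 and 117 at 6 h. Across null lines 25 and 39 it stood at 76.9 and 80.0, then 70.1 and 75.6, then 96.2 and 94.8 FPKM. Both WT lines were thus higher at 3 h than in SB and both null lines were slightly lower, while all 4 lines were higher at 6 h. Averaged over genotypes it rose by 0.42 at 6 h (SE 0.0537, limma adjusted p = 0.00083), and its call at 3 h (0.18, adjusted p = 0.032) averages 0.46 in WT and -0.11 in null and was 0.06 (adjusted p = 0.39) under quantile normalization. Without lines 18, 26, 25 and 39 the 3 h change was 0.15, 0.20, 0.19 and 0.16, not called (adjusted p = 0.073 to 0.22).

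Sc5d, a sterol desaturase near the end of the pathway (chr9:42251604-42264313), was low among the sterol genes in level and was higher at 6 h in each line, by 0.30 to 0.60. It stood at 10.8 and 10.4 FPKM in SB, 12.8 and 11.1 at 3 h and 14.7 and 13.0 at 6 h in WT lines 18 and 26. In null lines 25 and 39 it stood at 10.3 and 9.40, then 11.5 and 11, then 14.1 and 14.8 FPKM. The 6 h libraries lay clear of the SB libraries, with a rise of 0.43 (SE 0.0612, limma adjusted p = 0.0014) that was nearly the same under quantile normalization (0.42).

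Dhcr7, the reductase of the final step to cholesterol (chr7:143823501-143848413), dipped at 3 h and came back. It stood at 20.6 and 18.3 FPKM in SB, 15.5 and 16.3 at 3 h and 18.5 and 19.2 at 6 h in WT lines 18 and 26. In the null lines, 25 and 39, it stood at 20.1 and 17.3, then 15.4 and 14.6, then 19.1 and 19.4 FPKM. All 3 h libraries lay below all SB libraries, and the 6 h libraries lay among the SB libraries. It fell by 0.28 at 3 h (SE 0.0585, limma adjusted p = 0.0068) and did not pass the test at 6 h (0.00, adjusted p = 0.99), with a rise of 0.28 from 3 to 6 h (adjusted p = 0.017).

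The other squalene to sterol genes changed less. Fdft1, the squalene synthase, ranged from 77.8 to 93.5 FPKM in SB and from 93 to 108 at 6 h, a rise of 0.22 (limma adjusted p = 0.01) that was 0.07 (adjusted p = 0.4) under quantile normalization. Lss, the lanosterol synthase that closes the ring, ranged from 53.6 to 60.1 FPKM in SB and from 46.1 to 57.4 at 3 h, a fall by 0.17 (adjusted p = 0.048) that was -0.12 (adjusted p = 0.22) without null line 25. Sqle, the squalene epoxidase, and Hsd17b7, a reductase of the sterol ring, were not called against SB at either time: at 6 h their changes were 0.10 (adjusted p = 0.11) and 0.15 (adjusted p = 0.063).

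**Figure D2:**
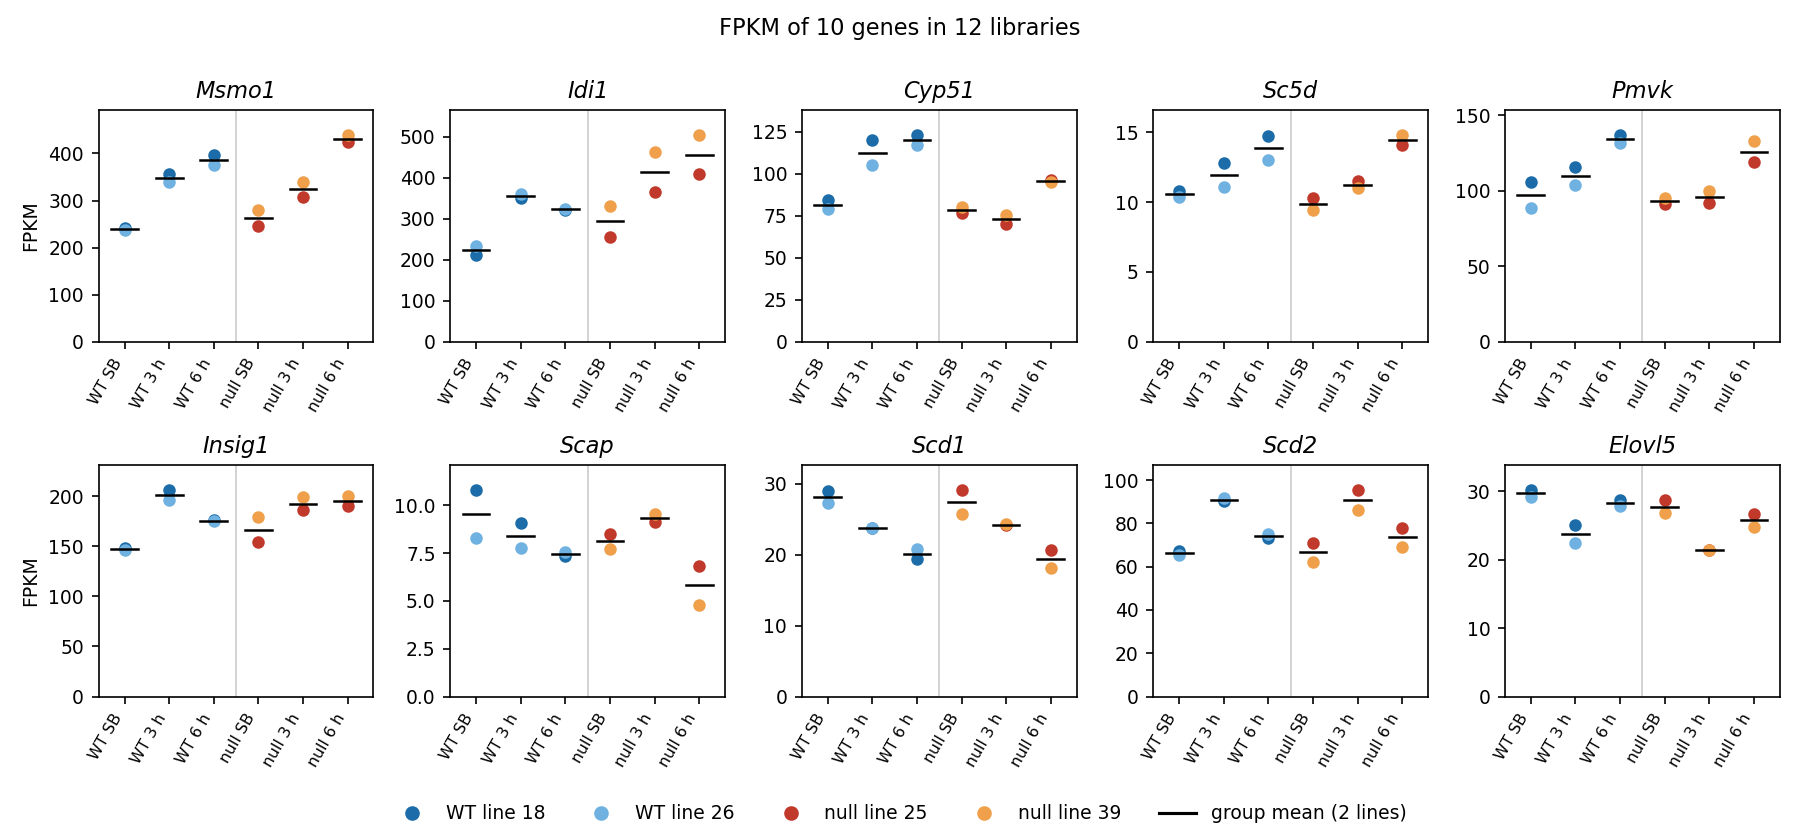
FPKM (linear axis from 0) of 10 genes in the 12 libraries, with points for the 4 cell lines and a bar at the mean of the 2 lines of each group. Msmo1 rose from SB to 3 h to 6 h in each line, Cyp51 was higher at 3 h in the WT lines alone, and Scd1 and Scd2 moved in opposite directions at 3 h.

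The control genes did not move as a group. Insig1, which retains SCAP in the endoplasmic reticulum and is itself an SREBP target (chr5:28071215-28078665), stood at 148 and 146 FPKM in SB, 206 and 196 at 3 h and 176 and 175 at 6 h in WT lines 18 and 26. Across null lines 25 and 39 it stood at 154 and 179, then 186 and 199, then 190 and 200 FPKM. Its 3 h libraries all lay above its SB libraries, and the WT lines came down again by 6 h while the null lines did not. Insig1 rose by 0.33 at 3 h (SE 0.0559, limma adjusted p = 0.0028) and 0.24 at 6 h (adjusted p = 0.011), which became 0.10 (adjusted p = 0.051) and 0.03 (adjusted p = 0.57) under quantile normalization. Insig2, its relative (chr1:121304352-121332580), was 8.73 and 8.46 FPKM in SB, 7.81 and 8.04 at 3 h and 9.89 and 9.27 at 6 h in the WT lines, and 8.94 and 10.6, then 7.61 and 8.69, then 8.98 and 10.4 FPKM in the null lines. It was lower at 3 h in each line, by amounts that did not pass the test (-0.17, limma adjusted p = 0.091).

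Srebf1 rose at 3 h and Srebf2 fell at 6 h. Srebf1 (a locus at chr11:60104890-60222796 that also spans Rai1) stood at 5.48 and 5.08 FPKM in SB, 6.90 and 7.12 at 3 h and 6.23 and 6.07 at 6 h in WT lines 18 and 26, and at 6.32 and 5.35, then 7.6 and 6.33, then 5.93 and 5.18 FPKM in null lines 25 and 39. Each line was higher at 3 h, the lowest 3 h value (6.33) barely exceeding the highest SB value (6.32), and the change was 0.29 (SE 0.0739, limma adjusted p = 0.017). Srebf2 (chr15:82147202-82205383) stood at 34.5 and 30.6 FPKM in SB, 32.6 and 31.7 at 3 h and 29.2 and 29.6 at 6 h in the WT lines, and at 32.3 and 28.0, then 30.9 and 28.4, then 26.2 and 25.7 FPKM in the null lines. It was lower at 6 h in each line, though the groups overlapped, and it fell by 0.17 (SE 0.059, limma adjusted p = 0.05, just under the threshold). The call was lost with no filter on low genes (adjusted p = 0.051) and without line 18 (0.38), 26 (0.15) or 25 (0.13). At 6 h 9 of 14 sterol genes were higher, and a relation to the Srebf2 level was not tested.

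Scap, the escort protein's gene (chr9:110333311-110384947), varied between lines. It stood at 10.8 and 8.27 FPKM in SB, 9.07 and 7.77 at 3 h and 7.37 and 7.58 at 6 h in WT lines 18 and 26, and at 8.51 and 7.71, then 9.12 and 9.53, then 6.82 and 4.81 FPKM in null lines 25 and 39. All 6 h libraries lay below the SB libraries, with the lowest in the shallowest library, and the fall was by 0.37 (SE 0.109, limma adjusted p = 0.029). Without null line 39 it was -0.29 (adjusted p = 0.098), and without WT line 18 or 26 it was -0.27 (adjusted p = 0.25) or -0.46 (adjusted p = 0.087). Stard4, a carrier that moves cholesterol between membranes, ranged from 27.3 to 30.9 FPKM in SB and from 34 to 37.4 at 6 h, a rise of 0.27 (adjusted p = 0.0032).

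Scd1 and Scd2, neighbouring genes for the desaturases that put the double bond into stearate and palmitate, went in opposite directions at 3 h. Scd1 (chr19:44394366-44407811) stood at 29.0 and 27.3 FPKM in SB, 23.7 and 23.7 at 3 h and 19.4 and 20.8 at 6 h in WT lines 18 and 26, and at 29.1 and 25.7, then 24.1 and 24.3, then 20.6 and 18.1 FPKM in null lines 25 and 39. It fell in each line at each step and the 3 treatments did not overlap: it fell by 0.20 at 3 h (SE 0.0576, limma adjusted p = 0.024; 0.052 without null line 25) and by 0.47 at 6 h (adjusted p = 0.00062). Scd2 (chr19:44293782-44306943) stood at 67.4 and 65.4 FPKM in SB, 90.1 and 91.8 at 3 h and 73.1 and 75.1 at 6 h in the WT lines, and at 71.1 and 62.2, then 95.4 and 86.1, then 77.7 and 69.3 FPKM in the null lines. All its 3 h libraries lay above all others, with a rise of 0.45 at 3 h (SE 0.0599, limma adjusted p = 0.001), and it came down by 0.30 from 3 to 6 h (adjusted p = 0.015). Of their 50-base words, 4.7% in Scd1 and 4.0% in Scd2 occurred in another gene.

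Fasn, the synthase that makes palmitate (chr11:120805941-120824319), followed the time course of Scd2. It stood at 23.9 and 22.5 FPKM in SB, 27.5 and 27 at 3 h and 25.9 and 24.2 at 6 h in WT lines 18 and 26, and at 21.7 and 19.4, then 29.4 and 24.8, then 23.7 and 21.5 FPKM in null lines 25 and 39. The 3 h libraries lay above the SB libraries, with a rise of 0.30 (SE 0.0666, limma adjusted p = 0.009), and the 6 h change of 0.12 was not called (adjusted p = 0.19). Elovl5, which lengthens polyunsaturated fatty acids (chr9:77917317-77984520), did the reverse: it stood at 30.2 and 29.2 FPKM in SB, 25.1 and 22.5 at 3 h and 28.8 and 27.9 at 6 h in the WT lines, and at 28.7 and 26.8, then 21.5 and 21.4, then 26.7 and 24.8 FPKM in the null lines. Its 3 h libraries lay below its SB libraries, with a fall by 0.33 (SE 0.0489, limma adjusted p = 0.0016), followed by a rise of 0.25 to 6 h (adjusted p = 0.014).

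The other fatty acid genes moved little. Elovl6, which lengthens palmitate, ranged from 20.8 to 26.4 FPKM in SB and from 17.7 to 23.3 at 3 h, a fall by 0.25 (limma adjusted p = 0.0081). Fads1, a desaturase of polyunsaturated fatty acids, ranged from 18.8 to 22.8 FPKM in SB and from 16.8 to 19.2 at 6 h, a fall by 0.20 (adjusted p = 0.023). Acly and Acss2, which supply acetyl-CoA from citrate and acetate, Acaca, whose product commits acetyl-CoA to fatty acids, Me1, which supplies NADPH, and Fads2, the partner of Fads1, were not called against SB at either time, with changes from -0.25 (Acss2, limma adjusted p = 0.064) to 0.17 (Me1, adjusted p = 0.068) at 6 h. More than 30% of the 50-base words of Acaca (52.6%), Me1 (32.8%), Fdft1 (30.7%) and Idi1 (30.5%) also occurred in other annotated genes, so their levels are uncertain in part.

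The gap between the branches opened in each line. The mean log2(FPKM + 1) of the 14 sterol genes exceeded that of the 11 fatty acid genes by 1.55 and 1.51 in WT lines 18 and 26 in SB, by 1.76 and 1.69 at 3 h and by 1.93 and 1.89 at 6 h. In null lines 25 and 39 the gap was 1.56 and 1.75 in SB, 1.58 and 1.70 at 3 h and 1.91 and 2.12 at 6 h. By 3 h it was wider in both WT lines, nearly level in null line 25 and narrower in null line 39, and by 6 h it was wider in all 4. The median change of the sterol genes exceeded that of the fatty acid genes by 0.29, 0.21, 0.06 and -0.09 in lines 18, 26, 25 and 39 at 3 h (mean 0.12, SD 0.169, n = 4) and by 0.47, 0.35, 0.38 and 0.34 at 6 h (mean 0.38, SD 0.0569). These are descriptions of chosen genes, without a test, and whether the genotypes differed in the 3 h gap was not tested. Leaving out a line gave 0.39 to 0.41 at 6 h, and quantile normalization gave 0.31.

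**Figure D3:**
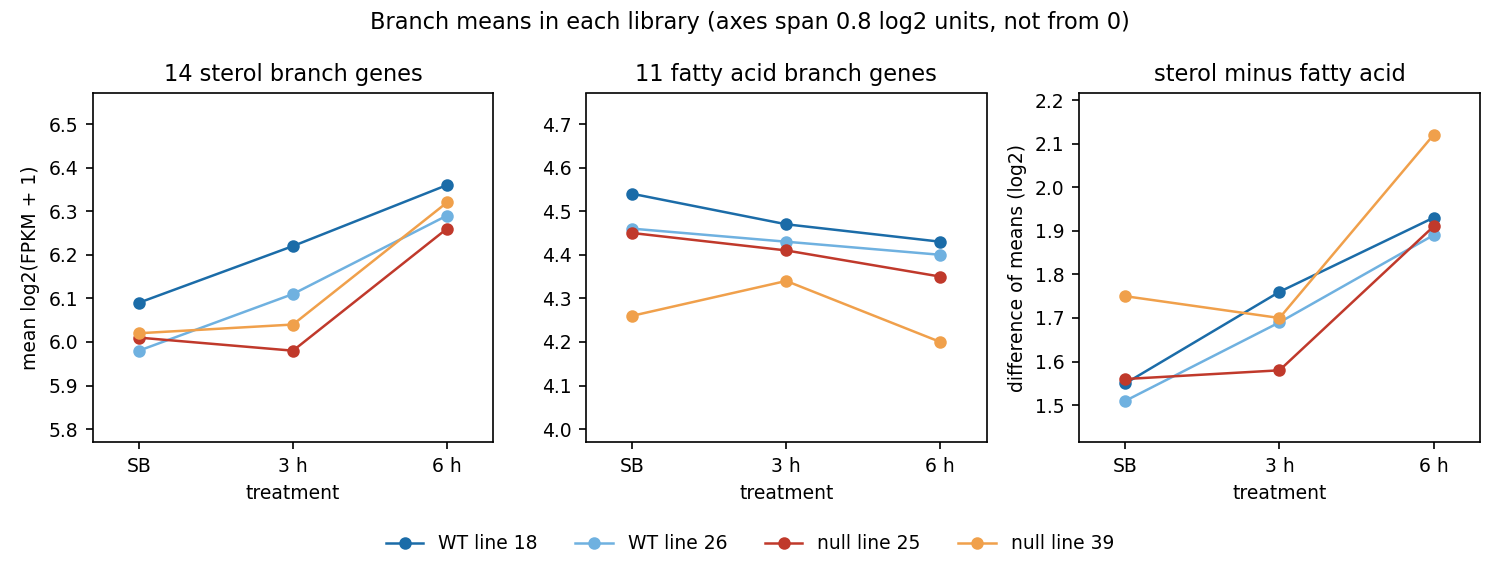
Mean log2(FPKM + 1) of the 14 sterol genes (left) and the 11 fatty acid genes (middle) and their difference (right) by treatment, with 1 line for each cell line; all axes span the same range and do not start at 0. The difference was 1.51 to 1.75 in SB and 1.89 to 2.12 at 6 h.

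Counting libraries rather than fitted changes gave a similar order. At 6 h the 4 Activin libraries lay wholly above the 4 SB libraries for 7 of 14 sterol genes, against 13.5% of all tested genes, namely Acat2, Hmgcs1, Pmvk, Mvd, Cyp51, Msmo1 and Sc5d. Of the fatty acid genes Scd1 alone did not overlap at 6 h, and it lay below SB, against 12.8% of all genes. At 3 h the groups did not overlap for 5 sterol genes, with Idi1, Msmo1 and Sc5d above SB and Mvk and Dhcr7 below, and for 4 fatty acid genes, with Scd2 and Fasn above and Elovl5 and Scd1 below, against 12.9% above and 15.9% below over all genes. All 4 lines were higher at 6 h for 11 of 14 sterol genes, against 32.5% of all genes, and for 3 of 11 fatty acid genes. All 4 lines were lower at 6 h for 6 of the 11 fatty acid genes (Acly, Acss2, Elovl6, Elovl5, Scd1 and Fads1), against 27.6% of all genes, and for 1 sterol gene, Mvk.

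Within each genotype, with 2 lines a group, fewer genes were called. In WT, 6 of the 31 genes were higher and 3 lower at 3 h (12.6% and 9.83% of all tested genes), and 7 were higher and 1 lower at 6 h (9.59% and 6.31%). In null, 3 were higher and 3 lower at 3 h (6.5% and 7.14%), and 8 were higher and 1 lower at 6 h (7.87% and 5.53%). The sterol genes among those higher at 6 h were Acat2, Hmgcs1, Pmvk, Cyp51, Msmo1 and Sc5d in WT, and the same 6 with Idi1 in null. From 3 to 6 h no gene of the 31 was called by limma in WT (11 at an unadjusted p under 0.05; 1.22% of all tested genes higher and 1.31% lower), and Cyp51, Msmo1 and Stard4 were higher in null (2.78% and 1.86%). With the cell line as a block, 9 were higher and 7 lower in WT at 3 h (21.3% and 15.9% of all tested genes). The WT counts were 12 and 2 at 6 h (21.6% and 12.3%) and 5 and 1 from 3 to 6 h (3.7% and 2.94%). The null counts were 6 and 6 at 3 h (15.5% and 14.1%) and 12 and 4 at 6 h (19.4% and 12%). From 3 to 6 h the null counts were 13 and 5 (8.89% and 4.55%). Without WT line 18 or 26 no gene of the 31 was called in WT against SB, and in that fit the lone WT library is assumed to vary like the null groups.

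Null and WT lines were compared within each treatment. In SB none of the 31 genes was called (limma; 5 at an unadjusted p under 0.05; 0.25% of all tested genes higher and 0.0624% lower in null), and the differences ran from -0.29 (Fads2) to 0.39 (Idi1). At 3 h Cyp51 was lower in null by 0.62 (SE 0.0759, 95% interval -0.79 to -0.45, limma adjusted p = 0.016), against 0.25% of all tested genes lower and 0.133% higher. At 6 h none was called (4 at an unadjusted p under 0.05; 0.148% higher and 0.0624% lower), with Cyp51 at -0.33 (adjusted p = 0.15) and Idi1 at 0.49 (adjusted p = 0.26). The Cyp51 call was lost when any line was left out: the difference was -0.53 (adjusted p = 0.71), -0.71 (0.28), -0.57 (0.059) and -0.67 (0.077) without lines 18, 26, 25 and 39. The direct test of a different response at 3 h gave -0.56 for Cyp51 (unadjusted p from limma 6e-04, adjusted p = 0.53), and no gene of the table was called in that test (654 genes at an unadjusted p under 0.05, 1 of them among the 31). At 6 h that test called no gene either (382 at an unadjusted p under 0.05, 1 among the 31).

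On the means of each line over the 3 treatments, where the cell line is the unit, limma called no gene of the table between genotypes (5 of the 31 at an unadjusted p under 0.05), with Cyp51 at -0.33 (adjusted p = 0.25) and Idi1 at 0.36 (adjusted p = 0.36). That comparison sets 2 lines against 2. Of 8 trophoblast markers 7 were measured, and their summed level was 85.4 to 101 FPKM in WT and 116 to 168 in null libraries, carried mostly by Krt18 and Krt8; its part in the genotype values was not tested.

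**Figure D4:**
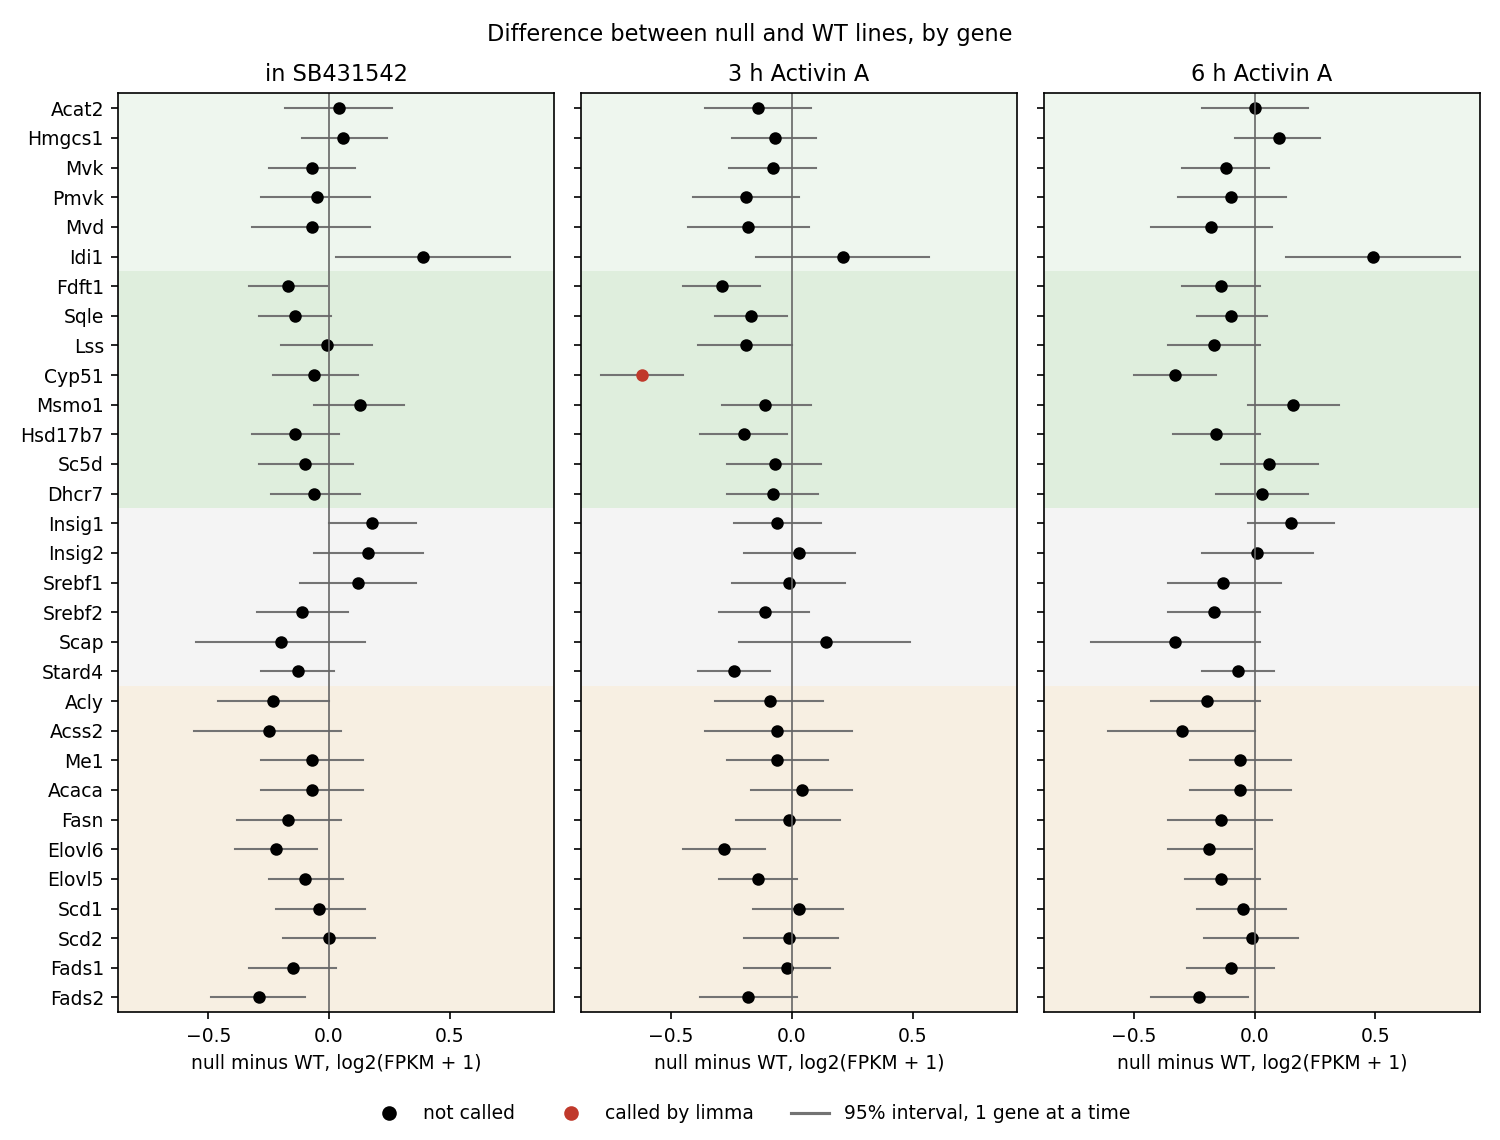
Null minus WT difference in log2(FPKM + 1) for the 31 genes in SB, at 3 h and at 6 h of Activin A, with the 95% interval of each gene taken singly. Cyp51 at 3 h (red, -0.62) is the 1 value called after adjustment over all tested genes.

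Genes of neighbouring pathways, from lists outside the 34, were measured beside them. Of 10 further control genes, 5 were lower at 3 h, and 3 were lower and 1 higher at 6 h, against 18.7% of all tested genes lower at 3 h and 16.1% lower and 21% higher at 6 h. The lower ones included Erlin1, which encodes a protein of the endoplasmic reticulum membrane (-0.48 at 3 h, limma adjusted p = 0.00033). Of 12 genes for uptake, efflux and storage, 3 were higher and 2 lower at 6 h, near the shares of all genes. Abcg1, a sterol exporter, fell by 0.78 at 6 h (limma adjusted p = 0.00039). It is a gene of low level, at 1.5 to 2.28 FPKM in SB and 0.516 to 0.737 at 6 h.

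Among 23 further fatty acid synthesis genes 9 were higher and 1 lower at 6 h, and 1 was higher and 6 lower at 3 h, against 21% and 16.1% of all tested genes at 6 h and 18.8% and 18.7% at 3 h. Mcat, of mitochondrial fatty acid synthesis, was lower at 3 h (-0.48, limma adjusted p = 0.00085), and Gpam, which starts glycerolipid synthesis, was lower at 6 h (-0.38, adjusted p = 0.0066). Hacd2 (0.43, adjusted p = 0.0037) and Elovl4 (0.39, adjusted p = 0.0033), which act in the elongation of fatty acids, were higher at 6 h. Thus some fatty acid genes outside the 11 did rise at 6 h; the difference between the lists was not tested. Of 18 fatty acid oxidation genes 2 were higher and 3 lower at 6 h, and Cpt1a, which admits fatty acids to mitochondria, rose by 1.48 at 3 h (limma adjusted p = 6.7e-05) and by 0.75 at 6 h (adjusted p = 0.0024). Its level was low, at 0.854 to 1.49 FPKM in SB and 3.72 to 6.22 at 3 h. Of 10 genes that use isoprenoids 3 were higher (Ggps1, by 0.25 with adjusted p = 0.046, Nus1 and Fnta) and 1 lower (Rabggta) at 6 h. Over all tested genes the shares at 6 h were the 21% and 16.1% given above.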

How the data were processed

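Poly(A) RNA from 12 dishes (4 cell lines, 3 treatments) was sequenced as 50 bp single reads, per the labels' protocols. The authors deposited 1 table of FPKM values per locus and library, with a status per value, per the file headers; per the submitters' processing notes, reads were placed on mm10. For the aligner, quantifier, strand use and scaling, details were not given in the sources used here. Read totals are unknown. Of 17446 loci, 2666 without a gene name (3.41 to 3.86% of a library's FPKM), 27 with a status other than OK and 1245 further loci of a repeated name were left out, leaving 13508 genes.

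Genes at 1 FPKM or more in at least 2 libraries (12823) were tested with limma 3.58.1 in R 4.3.3 on log2(FPKM + 1), a scale that understates changes of low genes, with a mean per group of genotype and treatment, trended moderated variances, 6 residual degrees of freedom, two-sided tests and Benjamini-Hochberg adjustment over all tested genes (threshold 0.05). The code was tested on simulated data. Each line gave 1 library per treatment, so the libraries pair by cell line; deviations from the group means of 1 line in 2 treatments correlated at 0.02 to 0.05 across genes in WT and 0.25 to 0.35 in null. The members, the lists and the tests were chosen with earlier results of these data known. Members were given in full where called, the 16 with the largest change, along with the SREBP control genes; for other lists, up to 4 called genes with the largest changes. A further list of sterol genes is not reported here. Alternatives were pseudocount 0.1, no filter, a filter at 5 FPKM, quantile normalization, median scaling, the cell line as a block and leaving out each line. Shared 50-base words were counted in the longest GENCODE M21 transcript of each gene, against either strand of the transcripts of other genes.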

Additional observations from a re-analysis of the deposited data

Results flagged for a closer look

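In 5 cases both WT lines moved one way from SB and both null lines the other. The difference in response (null minus WT, log2(FPKM + 1)) was tested with limma and none was called. At 3 h it was -0.56 for Cyp51 (adjusted p = 0.53), -0.12 for Fdft1 (adjusted p = 0.93), -0.10 for Mvd (adjusted p = 0.94) and 0.34 for Scap (adjusted p = 0.93). At 6 h it was -0.25 for Srebf1 (adjusted p = 1). For Mvd and Fdft1 the null lines stood within 0.03 of their SB value, so the opposite sign there rests on small steps. Such an opposite split occurred in 6.64% of the 12823 tested genes at 3 h, and in 4 of the 31 lipid genes; at 6 h it occurred in 4.78% of genes and in 1 of the 31.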

How the results depend on the processing

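No called change reversed its direction under any alternative. With the cell line as a replicate block, which pairs the 3 libraries of a line, more of the 31 genes were called: 16 in WT at 3 h, 14 in WT at 6 h, 6 in WT from 3 to 6 h, 12 in null at 3 h, 16 in null at 6 h, 18 in null from 3 to 6 h, and, over both genotypes, 19 at 3 h, 23 at 6 h and 21 from 3 to 6 h (main counts 9, 8, 0, 6, 9, 3, 13, 15 and 13). The block lost no call, and genotype differences cannot be fitted with it. The shares of all tested genes called with the block, given above, were also higher than without it. Quantile normalization left 1 gene called in null from 3 to 6 h, against 2.09% of all tested genes higher and 2.04% lower. It gave a branch difference of 0.31 at 6 h in place of 0.38. It lost 18 calls and gained 10, among them losses for Hmgcs1, Mvd, Fdft1 and Insig1 at 6 h, and the cause was not tested. Median scaling lost 4 and gained 6, no filter lost 4, pseudocount 0.1 lost 2, and the filter at 5 FPKM gained 8.

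Leaving out a line gave these ranges of genes called: WT at 3 h 0 to 13, WT at 6 h 0 to 12, WT from 3 to 6 h 0 to 1, null at 3 h 0 to 7, null at 6 h 2 to 4, null from 3 to 6 h 0 to 0, both genotypes at 3 h 0 to 13, at 6 h 4 to 16 and from 3 to 6 h 0 to 7, null against WT in SB 0 to 5, at 3 h 0 to 0, at 6 h 0 to 3, and on line means 0 to 1. The branch difference was 0.12 to 0.17 at 3 h and 0.39 to 0.41 at 6 h. Over both genotypes fewer genes were called without WT line 18 or 26, again over the whole table too. Depth limits genes of a few FPKM most, such as Acss2, Acaca and Srebf1, and Abcg1, Cpt1a, Gpam and Elovl4 of the other lists.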

Other observations

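Ebp and Nsdhl, sterol enzymes encoded on X, had no row under their names in the table. By position, 2 unnamed loci lay within Ebp, each covering a 0.062 or 0.057 share of the gene, and 1 of them stood at 16.5, 13.8, 16.1 and 18.2 FPKM in SB and at 26.5, 23.2, 21.8 and 26.3 at 6 h in lines 18, 26, 25 and 39. An unnamed locus in the 3′ part of Nsdhl (a 0.032 share of the gene) stood at 26.4, 25.5, 27.1 and 29.8 FPKM in SB and at 30.4, 31.7, 33.9 and 34 at 6 h. Each of these loci was higher at 6 h than in SB in all 4 lines, against 32.5% of all tested genes. Of the other unnamed loci that overlapped Nsdhl, 1 was also higher in all 4 lines. The other, near 0 FPKM, was higher in lines 18, 26 and 25 and went from 0.096 to 0 FPKM in line 39. These loci were not tested and describe only those stretches.

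The rows that joined a listed gene with its neighbours gave values that cannot be assigned to 1 gene. The row naming Fdps and Rusc1 ranged from 139 to 162 FPKM in SB and from 156 to 172 at 6 h, and its coordinates cover no part of the annotated Fdps gene. The row naming Tm7sf2 with Vps51 and Zfpl1 ranged from 50.7 to 56.9 FPKM in SB and from 62.7 to 71.3 at 6 h. The row naming Acsl3, of the fatty acid branch, with Utp14b ranged from 82.9 to 102.6 FPKM in SB. At 6 h that row ranged from 110.8 to 127.8 FPKM, so it too was higher at 6 h.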
